A study of Mus musculus with 24 samples.

Results

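The genes described here are the insulin receptor substrates Irs1 and Irs2, the insulin and IGF1 receptors (Insr and Igf1r), the growth factor Igf1, and the IGF binding proteins Igfbp1, Igfbp3, Igfbp4, Igfbp5 and Igfbp7, measured by RNA-Seq in whole mouse kidney. They were chosen by symbol, and all 10 were found among the 19426 genes of the expression table and passed its filter on low values. C57BL6 mice labelled male, 13 weeks old, received PTH as hPTH(1-34) (0.3 mg/kg, kidneys taken after 1 hour), YKL-05-099, an inhibitor of the salt-inducible kinases (SIKs) (45 mg/kg, 3 hours), or vehicle, with 8 libraries per group. The study asked which acute renal actions of PTH, a hormone that lowers SIK activity through cAMP, are shared by direct SIK inhibition. Each agent was given at 1 dose and 1 time, and these differed between agents, so agent and time after dosing cannot be told apart when YKL-05-099 is set against PTH. The route is described differently in the design text (injection into the abdomen for every group) and in the study's methods (PTH under the skin), and the hour at which vehicle kidneys were taken was not given. The design text names 6 mice per treatment against 8 libraries here, and no source states that each library is a separate animal, so p-values measure the spread between libraries.

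Insulin and IGF1 bind related receptor kinases that phosphorylate IRS proteins, which recruit PI3K and thereby activate AKT. AKT in turn holds FOXO transcription factors out of the nucleus. IGF binding proteins carry IGFs in blood and tissue fluid and limit or prolong their access to receptors. In liver, Irs2 is known as a gene switched on during fasting by FOXO factors and by cAMP through CREB and its CRTC coactivators, which SIKs hold in the cytoplasm, whereas Irs1 is regulated less by such signals, and Igfbp1 is a standard FOXO-dependent, insulin-suppressed gene.

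Promoter sequences from RefSeq (GRCm38.p6) are shown for the pair of genes that passed the test, Irs2 and Igfbp3, and for Irs1, the related substrate, and Igfbp1, the neighbour of Igfbp3 on chromosome 11, neither of which passed. Each window runs from 250 bases before to 50 bases after the annotated start, 5′ to 3′ on the gene's strand, except that a shorter stretch is given for Irs1. Capitals mark matches to CACGTG (an E-box) or CAAAACA (a FOXO-type element, also searched as its reverse complement TGTTTTG). The windows are chr8:11008880-11009179 on the minus strand for Irs2, chr1:82291515-82291574 (minus) for Irs1, chr11:7197537-7197836 (plus) for Igfbp1 and chr11:7213874-7214173 (minus) for Igfbp3. The start used for Igfbp3, at 7213923, matches the end of the GENCODE gene and lies inside the longer RefSeq bounds given below for that gene.
Irs2: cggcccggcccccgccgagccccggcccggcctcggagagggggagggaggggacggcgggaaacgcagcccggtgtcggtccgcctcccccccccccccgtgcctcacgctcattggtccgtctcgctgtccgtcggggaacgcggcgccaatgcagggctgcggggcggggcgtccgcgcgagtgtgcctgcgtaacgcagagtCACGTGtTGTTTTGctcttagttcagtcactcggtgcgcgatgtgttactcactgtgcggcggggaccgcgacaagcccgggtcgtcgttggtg
Irs1: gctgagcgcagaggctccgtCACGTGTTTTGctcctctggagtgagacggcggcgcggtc
Igfbp1: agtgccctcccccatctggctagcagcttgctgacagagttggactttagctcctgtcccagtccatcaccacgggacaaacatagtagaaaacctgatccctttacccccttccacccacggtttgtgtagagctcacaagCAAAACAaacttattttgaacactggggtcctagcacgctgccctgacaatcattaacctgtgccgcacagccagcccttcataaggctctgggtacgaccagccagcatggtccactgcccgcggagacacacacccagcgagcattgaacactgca
Igfbp3: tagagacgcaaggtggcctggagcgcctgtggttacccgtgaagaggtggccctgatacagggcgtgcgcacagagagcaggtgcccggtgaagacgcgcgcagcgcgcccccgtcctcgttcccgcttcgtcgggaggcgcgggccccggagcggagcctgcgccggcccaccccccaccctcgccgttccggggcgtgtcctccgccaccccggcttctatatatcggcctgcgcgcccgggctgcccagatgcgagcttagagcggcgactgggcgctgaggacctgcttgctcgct
In Irs2 the E-box lay at -44 to -39 and the FOXO-type element, on the opposite strand, at -37 to -31, counting the start base as 0. In Irs1 the E-box at -115 to -110 shared bases with a FOXO-type element at -111 to -105, and a second such element lay at -32 to -26. Igfbp1 carried the element at -108 to -102. Windows were found for 9 of the 10 genes (not for Insr), and the 6 other than Irs1, Irs2 and Igfbp1 held neither motif, nor any match to TGACG (the core of a cAMP response element, CRE), TGACGTCA (full CRE) or TTCNNNGAA (STAT-type), all searched on both strands. Of 32851 promoter windows of the same length, 7.15% held the E-box, 6.28% the FOXO-type element, 20.8% the CRE core, 1.79% the full CRE and 8.3% the STAT-type element. Of these 9 genes, Irs1 alone held a CRE core, at -118 to -114, overlapping its E-box. An E-box and a FOXO-type element at most 10 bases apart were found in 18 of the 32851 windows (0.0548%), among them those of both Irs1 and Irs2. This pairing was noticed on reading the sequences, and a match is a description of letters, not a bound site.

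Depth, estimated from the steps between low values, was about 5830000 to 7770000 fragments per library, and pairs of libraries correlated at 0.939 to 0.977 across genes. Although labelled male, all 24 libraries had 76.26 to 114.05 FPKM of Xist, the X-inactivation transcript, and at most 0.1 FPKM of the Y-linked Ddx3y and 0.06 of Uty. Tubule, podocyte, endothelial, stromal and leukocyte markers were all present. The summed level of 8 proximal tubule markers was 2846 to 3798 FPKM with YKL-05-099, 2164 to 2973 with PTH and 2224 to 2607 with vehicle. Slc34a1 was the largest part of this sum, with means of 1585, 1251 and 1176 FPKM in the same order. With YKL-05-099, 3 of these 8 markers rose, where 6.26% of all genes tested were higher. In whole tissue, fewer cells of a type and less RNA per cell cannot be told apart. PTH replicates 1 and 5, YKL-05-099 replicate 2 and vehicle replicate 7 had the highest summed levels of 6 urothelial markers (35.42 to 65.82 FPKM), and results that changed without these 4 libraries are given both ways.

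Across the 10 genes, 1 rose and 0 fell with PTH, 1 rose and 1 fell with YKL-05-099, and 1 was lower and 0 higher with YKL-05-099 than with PTH, by limma with p-values adjusted over all 13991 genes tested and called below 0.05. At an unadjusted p below 0.05, likewise 0 of the 10 fell with PTH, and 2 were higher with YKL-05-099 than with PTH. Of all genes tested, 17.1% were called with PTH (6% higher, 11.1% lower), 17.7% with YKL-05-099 (6.26% higher, 11.5% lower) and 6.42% between the agents (2.84% higher, 3.58% lower with YKL-05-099), so the counts among the 10 were close to the background. The median log2 fold change of the 10 genes was -0.02 with PTH and 0.03 with YKL-05-099, beside -0.05 with each agent over all genes tested. Both agents were set against the same vehicle libraries. Under median-ratio scaling 49.9% of the calls with PTH were higher, against 35% without it, and 50.3% of those with YKL-05-099, against 35.3%. The calls of the 10 genes against vehicle were the same under it.

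**Figure D1:**
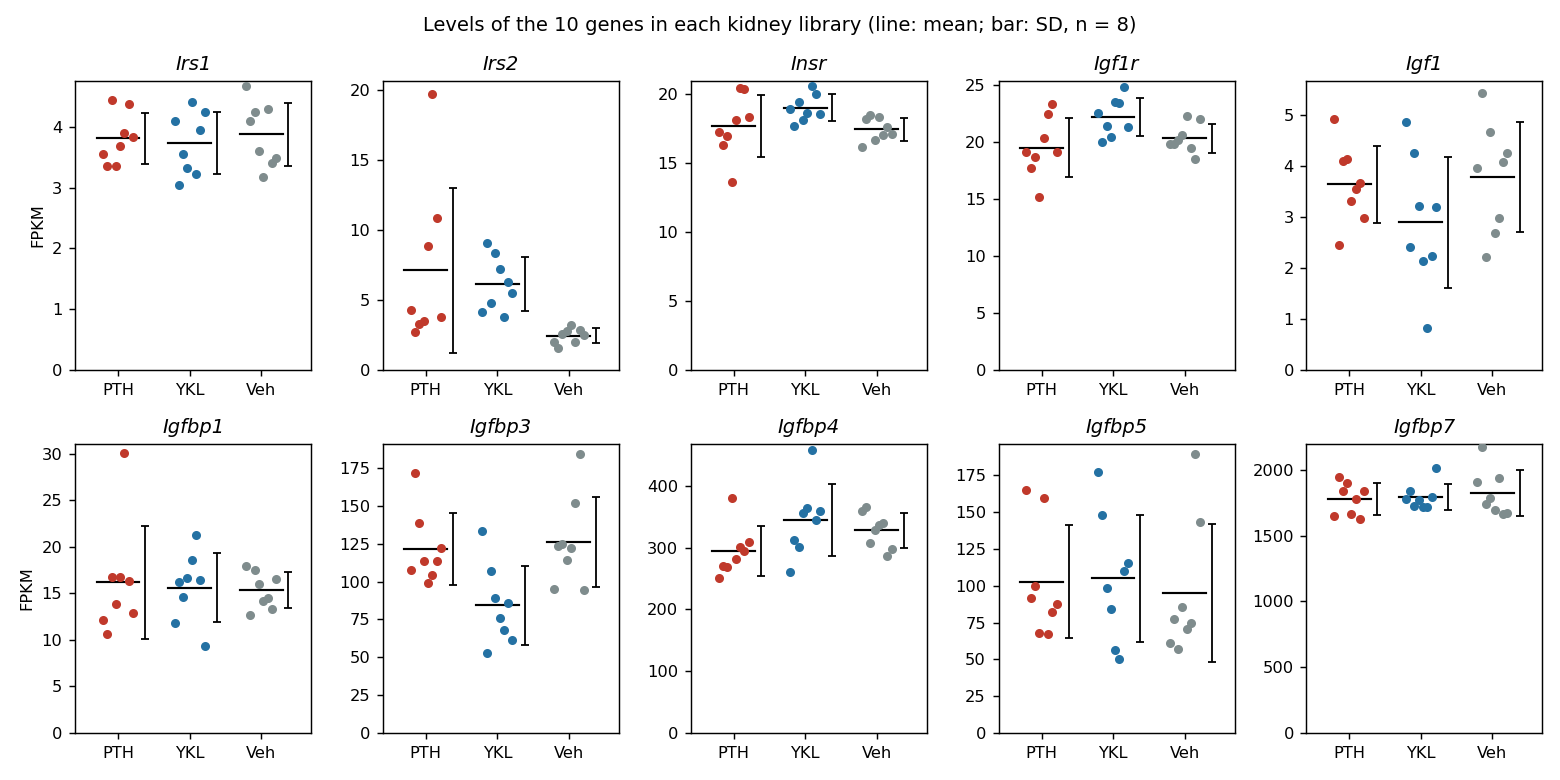
FPKM of each gene (vertical axes, starting at 0) in PTH, YKL-05-099 (YKL) and vehicle (Veh) kidneys, 1 point per library in replicate order, with the group mean as a line and the SD as a bar (n = 8 each). Irs2 was above the highest vehicle library in 7 of 8 PTH and 8 of 8 YKL-05-099 libraries, and Igfbp3 was below the lowest vehicle library in 6 of 8 YKL-05-099 libraries.

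The ligand, Igf1 (chromosome 10, 87858265 to 87937047, plus strand; here and below GRCm38.p6 RefSeq gene bounds), encodes the growth factor that activates Igf1r. Its level was 2.46, 3.61 and 4.91 FPKM (lowest, median, highest) with PTH, 0.82, 2.81 and 4.86 FPKM with YKL-05-099, and 2.21, 4.01 and 5.43 FPKM with vehicle. The groups overlapped. The log2 fold change, on the scale of log2(FPKM + 0.1) used throughout, was -0.03 with PTH (95% interval -0.53 to 0.48, adjusted p = 0.96) and -0.47 with YKL-05-099 (-0.97 to 0.04, adjusted p = 0.192), and neither passed the test. The YKL-05-099 value rested in part on replicate 6, at 0.82 FPKM, without which it was -0.25 (adjusted p = 0.413). Igf1 has an antisense gene, Igf1os, within its bounds, and since no strand setting was given their fragments cannot be told apart.

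That YKL-05-099 replicate stood at an extreme of its group for most of the 10 genes. It held the group's highest Insr (20.6 FPKM), Igfbp1 (21.29) and Igfbp4 (457.88) and its lowest Irs2 (3.83), Igf1 (0.82), Igfbp5 (50.12) and Igfbp7 (1716). It also had the highest proximal tubule sum (3798 FPKM) and the lowest endothelial (129.96), stromal (57.09) and leukocyte (23.75) sums of its group. Their part in these levels was not tested.

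The receptors were expressed at similar levels to each other, and neither passed the test in any comparison. Insr (chromosome 8, 3150922 to 3279649, minus strand), the insulin receptor, had 13.6, 17.69 and 20.41 FPKM with PTH, 17.72, 18.79 and 20.6 FPKM with YKL-05-099, and 16.2, 17.36 and 18.48 FPKM with vehicle. In YKL-05-099 kidneys 6 of 8 libraries lay above the highest vehicle library, but by a small margin, and the log2 fold change of 0.12 (-0.01 to 0.26, adjusted p = 0.199) did not pass the test. With PTH it was 0.01 (-0.13 to 0.14, adjusted p = 0.948).

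Igf1r (chromosome 7, 67952257 to 68233668, plus strand), the receptor for IGF1 and IGF2, had 15.18, 19.14 and 23.3 FPKM with PTH, 20.04, 21.96 and 24.86 FPKM with YKL-05-099, and 18.49, 20.02 and 22.26 FPKM with vehicle. All 8 YKL-05-099 libraries lay above the PTH mean. Its log2 change was -0.07 with PTH (-0.22 to 0.08, adjusted p = 0.563), 0.12 with YKL-05-099 (-0.02 to 0.27, adjusted p = 0.236) and 0.19 between YKL-05-099 and PTH (0.05 to 0.34, adjusted p = 0.107). The difference between agents passed the test only without PTH replicate 7 (0.23, adjusted p = 0.0412). The ratio of Igf1r to Insr, both per length, was 1.04 to 1.14 with PTH, 1.10 to 1.26 with YKL-05-099 and 1.05 to 1.29 with vehicle, so Igf1r was the higher of the pair in all 24 libraries.

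Of the receptor substrates, Irs2 passed the test and Irs1 did not, and the difference between the pair was not tested. Irs2 (chromosome 8, 10984681 to 11008929, minus strand), whose promoter is printed above, rose with both agents. In PTH kidneys its level was 4.29, 2.75, 3.3, 3.49, 8.87, 19.75, 10.88 and 3.83 FPKM in replicates 1 to 8. In YKL-05-099 kidneys it was 4.14, 9.06, 4.82, 8.37, 7.25, 3.83, 6.28 and 5.51 FPKM, and in vehicle kidneys 2.05, 1.57, 2.62, 2.8, 3.26, 2.03, 2.9 and 2.52 FPKM. All 8 YKL-05-099 libraries lay above the highest vehicle library, whereas PTH replicate 2, at 2.75 FPKM, lay inside the vehicle range and PTH replicates 5 to 7 stood well above the other 5. PTH replicates 5 to 7 also had their group's highest proximal tubule sums (2747, 2973 and 2799 FPKM). Their estimated depths were the group's highest too (7770000, 7740000 and 7710000 fragments). The part of either in the Irs2 levels was not tested. The group means were 6.16 ± 1.94 FPKM with YKL-05-099 and 2.47 ± 0.55 FPKM with vehicle (SD, n = 8 each), and the PTH SD, 5.88 FPKM, was the widest of the 3. Irs2 had a log2 fold change of 1.19 with PTH (SE 0.30, 95% interval 0.57 to 1.81, adjusted p = 0.00748) and 1.25 with YKL-05-099 (SE 0.30, 0.63 to 1.88, adjusted p = 0.00601), or 2.28-fold and 2.39-fold. Between YKL-05-099 and PTH it was 0.06 (-0.56 to 0.69, adjusted p = 0.952), an interval that leaves room for a difference of either sign. No alternative setting ended the call with either agent. Without PTH replicate 6, the PTH value was 0.93 (adjusted p = 0.0128). An antisense transcript, 9530052E02Rik, lies within the Irs2 bounds. By the estimated depth, the vehicle levels correspond to about 66.8 to 140 fragments per library.

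Irs1 (chromosome 1, 82233105 to 82291439, minus strand), which shares the docking role of Irs2 and the E-box and FOXO-type letters of its promoter, had 3.35, 3.76 and 4.44 FPKM with PTH, 3.04, 3.75 and 4.41 FPKM with YKL-05-099, and 3.18, 3.85 and 4.67 FPKM with vehicle. The groups overlapped over nearly their whole ranges. Its log2 fold change was -0.02 with PTH (-0.21 to 0.18, adjusted p = 0.927) and -0.05 with YKL-05-099 (-0.25 to 0.14, adjusted p = 0.74), so that the upper bounds lay well under the Irs2 estimates. The ratio of Irs2 to Irs1 was 0.74 to 5.08 (median 1.12) with PTH, 1.01 to 2.98 (median 1.48) with YKL-05-099 and 0.38 to 1.03 (median 0.67) with vehicle. Irs2 thus exceeded Irs1 per length in 5 of 8 PTH, 8 of 8 YKL-05-099 and 1 of 8 vehicle libraries.

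**Figure D2:**
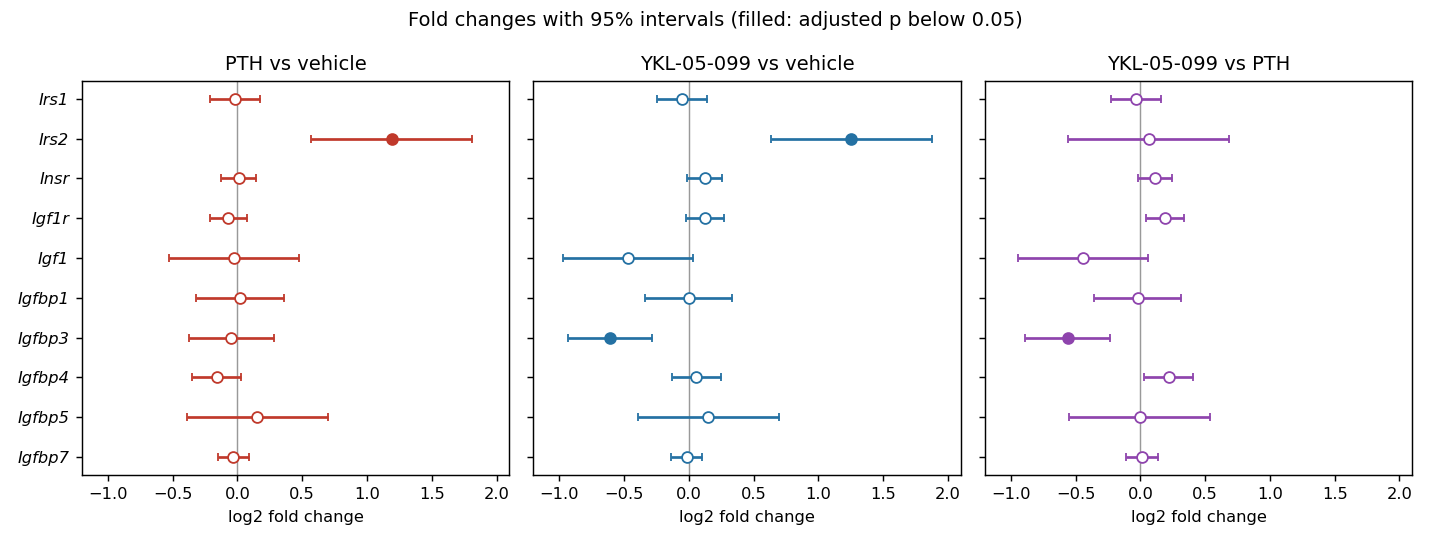
Log2 fold change on the log2(FPKM + 0.1) scale (horizontal axis) with its 95% interval for each gene in the 3 comparisons. Filled points passed the test at an adjusted p below 0.05: Irs2 with PTH (1.19) and with YKL-05-099 (1.25), and Igfbp3 with YKL-05-099 against vehicle (-0.61) and against PTH (-0.56).

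Igfbp7, Igfbp4, Igfbp3 and Igfbp5 were far more abundant than the receptors and substrates, whereas the median of Igfbp1 lay below those of both receptors in every group. Igfbp7 (chromosome 5, 77349240 to 77408045, minus strand) encodes a matrix-associated protein that binds IGFs only weakly. Of the summed FPKM of Igfbp1 to Igfbp7, with Igfbp2 and Igfbp6 included, it made up 74.6% to 78.1% with PTH, 74.1% to 78.3% with YKL-05-099 and 70.7% to 78.5% with vehicle. Its level was 1628, 1807 and 1943 FPKM with PTH, 1716, 1775 and 2014 FPKM with YKL-05-099, and 1664, 1761 and 2171 FPKM with vehicle. It had the narrowest intervals of the 10 genes against vehicle, -0.03 with PTH (-0.15 to 0.09, adjusted p = 0.792) and -0.02 with YKL-05-099 (-0.14 to 0.11, adjusted p = 0.876). Polr2b and Gm34648 overlap Igfbp7 on the other strand.

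Igfbp4 (chromosome 11, 99040005 to 99052655, plus strand), an inhibitor of IGF action that is removed by the protease PAPP-A, was next, with 250.52, 288.17 and 380.83 FPKM with PTH, 259.75, 349.83 and 457.88 FPKM with YKL-05-099, and 286.52, 332.22 and 366.49 FPKM with vehicle. In PTH kidneys 4 of 8 libraries lay below the lowest vehicle library, and replicate 4, the highest, lay above every vehicle library. The log2 fold change was -0.16 with PTH (-0.35 to 0.03, adjusted p = 0.247), 0.06 with YKL-05-099 (-0.13 to 0.25, adjusted p = 0.706) and 0.22 between YKL-05-099 and PTH (0.03 to 0.41, adjusted p = 0.159). None passed the test, although the difference between agents did so without PTH replicate 4 (adjusted p = 0.0488) or without YKL-05-099 replicate 1 (adjusted p = 0.0473).

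Igfbp3 (chromosome 11, 7206086 to 7215498, minus strand), the main carrier of IGFs in blood, fell with YKL-05-099 and not detectably with PTH. Its level was 107.34, 171.67, 138.69, 113.7, 99.13, 104.04, 113.56 and 122.06 FPKM in PTH replicates 1 to 8. In YKL-05-099 replicates it was 133.69, 52.87, 106.92, 89.13, 76.02, 68.23, 85.51 and 61.54 FPKM, and in vehicle replicates 95.17, 123.15, 124.88, 114.35, 122.41, 151.81, 184.44 and 94.2 FPKM. In YKL-05-099 kidneys 6 of 8 libraries lay below every vehicle library and below every PTH library, and replicates 1 and 3 lay within both ranges. The group means were 121.3 ± 23.7 FPKM with PTH, 84.2 ± 26.2 FPKM with YKL-05-099 and 126.3 ± 29.8 FPKM with vehicle (SD, n = 8 each). The log2 fold change with YKL-05-099 was -0.61 (SE 0.16, 95% interval -0.94 to -0.28, adjusted p = 0.00988), or 0.656 of the vehicle level. With PTH it was -0.05 (-0.38 to 0.28, adjusted p = 0.888). The difference between YKL-05-099 and PTH was -0.56 (-0.89 to -0.23, adjusted p = 0.0329).

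The fall with YKL-05-099 did not pass the test without the 4 libraries highest in urothelial markers (-0.44, adjusted p = 0.0509), a set that holds the lowest YKL-05-099 and the highest vehicle value of Igfbp3, but passed without any 1 library. The difference between agents was lost in a fit over those 2 groups alone (adjusted p = 0.0555), with a replicate block (0.0576), without PTH replicate 2 (0.0779) or 3 (0.0646), and without YKL-05-099 replicate 2 (0.0716), 5 (0.059), 6 (0.0699) or 8 (0.0681).

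Some markers of vessels, stroma and leukocytes also fell with YKL-05-099. Among all genes tested, 11.5% were lower and 6.26% higher with YKL-05-099, and 11.1% lower and 6% higher with PTH. The median log2 fold change over all genes tested was -0.05 with each agent. Of 10 endothelial markers, 3 fell (Kdr, Flt1 and Tek, the receptors for VEGF and angiopoietin) and 0 rose, with a median log2 fold change of -0.38. Their summed level was 129.96 to 291.05 FPKM with YKL-05-099, 201.81 to 331.05 FPKM with PTH and 189.13 to 398.69 FPKM with vehicle. Of 10 stromal markers, 4 fell (Pdgfrb, Pdgfra, Col1a2 and Col3a1) and 0 rose (median -0.44), with sums of 57.09 to 108.65 FPKM with YKL-05-099 and 71.01 to 119.72 FPKM with vehicle. Of 7 leukocyte markers tested, 3 fell (Ptprc, Coro1a and Cd52) and 0 rose (median -0.52), with sums over the 9 listed of 23.75 to 34.25 FPKM with YKL-05-099 and 32.62 to 44.92 FPKM with vehicle. At an unadjusted p below 0.05 in limma, likewise 0 markers of the 3 lists rose, although Acta2, Csf1r and Laptm5 had log2 fold changes of 0.20, 0.13 and 0.03. With PTH, 0 of the 10 endothelial markers passed the test, at an adjusted or an unadjusted p below 0.05, whereas 2 stromal markers rose (Tagln and Acta2, by 0.44 and 0.47, adjusted p = 0.0341 and 0.0192) and 1 leukocyte marker rose (Csf1r, by 0.38, adjusted p = 0.000649). None of the stromal or leukocyte markers fell with PTH, and 2 stromal and 0 leukocyte markers were lower at an unadjusted p below 0.05 in limma. Stromal sums with PTH were 73.81 to 134.03 FPKM and leukocyte sums 33.09 to 65.43 FPKM. None of the endothelial, stromal or leukocyte markers was under 0.1 FPKM in every library of a group. YKL-05-099 replicate 1, the highest of its group for Igfbp3 (133.69 FPKM), was also the highest for endothelial and stromal sums. In some other libraries Igfbp3 and the endothelial sum did not run together. YKL-05-099 replicate 2 had the lowest Igfbp3 of all 24 (52.87 FPKM) with the second-highest endothelial sum of its group (256.03 FPKM). Vehicle replicate 8 had the lowest vehicle Igfbp3 (94.2 FPKM) with an endothelial sum of 354.99 FPKM, exceeded only by vehicle replicate 7. In the same order, these libraries had stromal sums of 71.92 and 91.1 FPKM. PTH replicate 2 and vehicle replicate 7, the highest of their groups for Igfbp3, also had their groups' highest stromal sums (134.03 and 119.72 FPKM). By contrast, vehicle replicate 3 had the lowest vehicle stromal sum (71.01 FPKM) with 124.88 FPKM of Igfbp3. The part of these cell types in the fall of Igfbp3 was not tested.

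**Figure D3:**
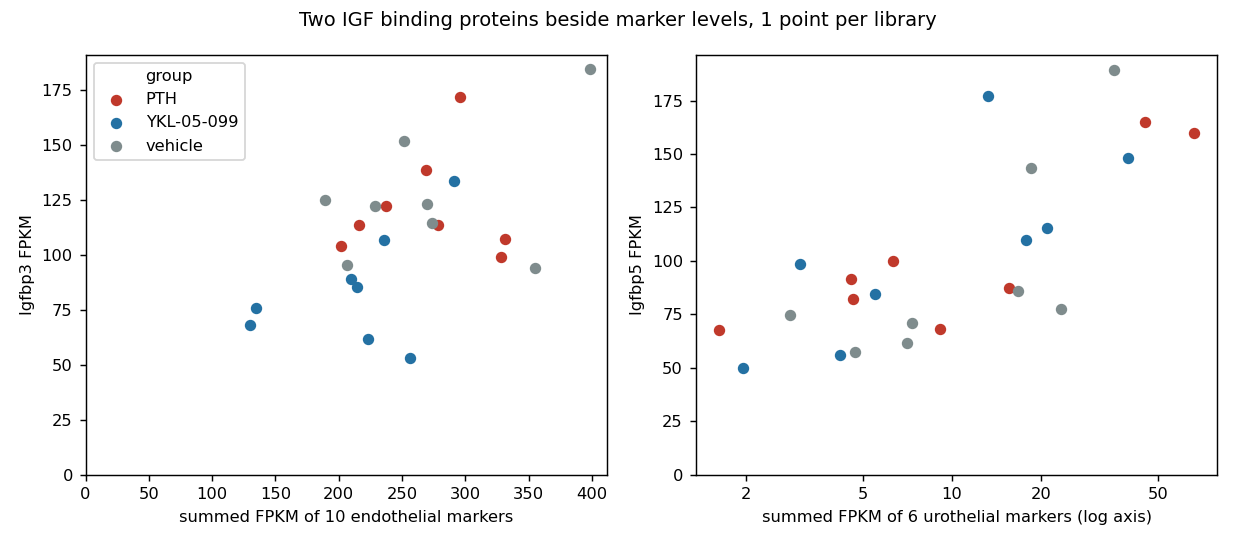
Left, Igfbp3 FPKM against the summed FPKM of 10 endothelial markers, and right, Igfbp5 FPKM against the summed FPKM of 6 urothelial markers on a log axis, with 1 point per library coloured by group (PTH, YKL-05-099, vehicle). The 2 libraries with the lowest endothelial sums, 129.96 and 134.9 FPKM, are both YKL-05-099, and the 4 libraries with the highest urothelial sums have 148.27 to 189.52 FPKM of Igfbp5.

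Igfbp5 (chromosome 1, 72858065 to 72874865, minus strand), a matrix-bound binding protein, had 67.57, 89.54 and 165 FPKM with PTH, 50.12, 104.29 and 177.09 FPKM with YKL-05-099, and 57.29, 76.2 and 189.52 FPKM with vehicle. A few libraries in every group were high, namely PTH replicates 1 and 5, YKL-05-099 replicates 1 and 2, and vehicle replicates 7 and 8. The 4 libraries highest in urothelial markers had 148.27 to 189.52 FPKM, and the other 20 had 50.12 to 177.09 FPKM (median 83.3), so Igfbp5 was high in all 4 of them. The 6 high libraries were also the pair with the highest endothelial sums in each group, at 331.05 and 328.06 FPKM in PTH replicates 1 and 5, 291.05 and 256.03 FPKM in YKL-05-099 replicates 1 and 2, and 398.69 and 354.99 FPKM in vehicle replicates 7 and 8. Summed adipocyte markers were highest of their groups in PTH replicate 1 (61.63 FPKM), YKL-05-099 replicate 2 (31.73 FPKM) and vehicle replicate 7 (34.68 FPKM). The part of these tissues in the Igfbp5 levels was not tested. The log2 fold change was 0.15 with PTH (-0.39 to 0.70, adjusted p = 0.756) and 0.15 with YKL-05-099 (-0.39 to 0.69, adjusted p = 0.739), the widest intervals among the 5 binding proteins of the chosen 10 genes.

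Igfbp1 (chromosome 11, 7197787 to 7202546, plus strand), the insulin-suppressed binding protein, lies beside Igfbp3 on the chromosome. It had 10.64, 15.12 and 30.03 FPKM with PTH, 9.38, 16.31 and 21.29 FPKM with YKL-05-099, and 12.62, 15.26 and 17.91 FPKM with vehicle. Most libraries of the 3 groups overlapped. The highest, PTH replicate 6 at 30.03 FPKM, was also the library with the highest Irs2 of all 24 (19.75 FPKM). Its log2 fold change was 0.02 with PTH (-0.32 to 0.36, adjusted p = 0.956) and 0.00 with YKL-05-099 (-0.34 to 0.34, adjusted p = 0.998).

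The genes whose pattern over the 24 libraries was most like that of Irs2, by Pearson's r of log2(FPKM + 0.1) among 12839 genes, were Atp2a2 (r = 0.873), the SERCA calcium pump of the endoplasmic reticulum, Tle4 (0.867), a transcriptional corepressor, and 5031439G07Rik (0.852). Atp2a2 had 78.46, 97.4 and 117.7 FPKM with PTH, 83.47, 93.9 and 99.95 FPKM with YKL-05-099, and 55.54, 67.8 and 81.13 FPKM with vehicle. Those nearest to Igfbp3 were Itih5 (0.913), which encodes a hyaluronan-binding inhibitor family member, Abca8a (0.913), a transporter, and Gimap4 (0.902), a GTPase of immune cells. Gimap4 had 18.1, 21.7 and 37.07 FPKM with PTH, 11.82, 14.5 and 24.81 FPKM with YKL-05-099, and 19.83, 22.8 and 31.83 FPKM with vehicle. These values are descriptive, since libraries of a group share their treatment.

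Around the 10 genes, the kinase and transcription factor branch showed 1 change near that of Irs2 in size. Of 27 genes tested for PI3K, AKT, mTOR and FOXO signalling, 1 rose and 2 fell with PTH, and 3 rose and 3 fell with YKL-05-099 (median log2 fold change 0.04 and 0.03). The shares over all genes tested were 6% higher and 11.1% lower with PTH, and 6.26% and 11.5% with YKL-05-099. Foxo3, a FOXO factor, had 15.28, 11.08, 11.47, 12.36, 21.92, 31.23, 32.54 and 20.03 FPKM in PTH replicates 1 to 8. With YKL-05-099 it had 13.13, 17.26 and 22.72 FPKM, and with vehicle 4.53, 8.14 and 11.67 FPKM. All 8 YKL-05-099 libraries and 6 of 8 PTH libraries lay above the highest vehicle library, and PTH replicates 5 to 7, the 3 highest for Irs2, were also the 3 highest for Foxo3. Its log2 fold change was 1.16 with PTH (0.72 to 1.59, adjusted p = 0.000398) and 1.16 with YKL-05-099 (0.72 to 1.59, adjusted p = 0.000802). Foxo4 fell with both, by 0.21 with PTH and by 0.23 with YKL-05-099 on the log2 scale (adjusted p = 0.028 and 0.0161), the calls being lost with both agents under median-ratio scaling and, for PTH, in a fit over 2 groups, without the 4 libraries highest in urothelial markers, or without vehicle replicate 4 or PTH replicate 5 or 8 (adjusted p up to 0.093). Trib3, a pseudokinase that binds AKT, fell by 0.88 with PTH and by 0.75 with YKL-05-099 (adjusted p = 0.0166 and 0.0392) at low levels of 0.21 to 1.64 FPKM. Its YKL-05-099 call was lost under median-ratio or quantile scaling, with a replicate block, and without vehicle replicate 2, 4, 5 or 6 or YKL-05-099 replicate 4, 5 or 8 (adjusted p up to 0.0918). With YKL-05-099 the kinase Akt2 rose by 0.27 (adjusted p = 0.00749) and Rheb, the GTPase that activates mTOR, fell by 0.23 (adjusted p = 0.0209), the Rheb call being lost under median-ratio scaling and without the 4 libraries highest in urothelial markers (adjusted p up to 0.0575). Akt2 and Rheb had log2 fold changes of 0.13 and -0.06 with PTH (adjusted p = 0.213 and 0.594). Between YKL-05-099 and PTH these were 0.14 and -0.17 (adjusted p = 0.224 and 0.148). Foxo1, which rose by 0.32 with YKL-05-099 (adjusted p = 0.0294), was outside the naming rule and is named after its value was seen. With PTH the log2 fold change of Foxo1 was -0.08 (adjusted p = 0.673). The Foxo1 call was not followed over the alternative settings.

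Genes known as FOXO-activated or insulin-suppressed moved in both directions, and more fell than rose with PTH. Of 18, 3 rose and 8 fell with PTH, where 6% of all genes tested were higher and 11.1% lower. With YKL-05-099, 2 rose and 2 fell, where 6.26% of all genes tested were higher and 11.5% lower. The median log2 fold change of the 18 was -0.04 with PTH and 0.02 with YKL-05-099. G6pc, the catalytic subunit of glucose-6-phosphatase, had 439.84, 541 and 680.87 FPKM with PTH, 172.75, 291.8 and 324.76 FPKM with YKL-05-099, and 163.46, 213.1 and 271.58 FPKM with vehicle. PTH libraries did not overlap with those of the other groups. It rose by 1.39 with PTH (adjusted p = 1.13e-08) and by 0.39 with YKL-05-099 (adjusted p = 0.0334), and the YKL-05-099 level was 0.498 of the PTH level (adjusted p = 1.33e-05). The YKL-05-099 call on G6pc was lost without vehicle replicate 3, 6 or 8 or YKL-05-099 replicate 2, 3, 4, 6 or 7 (adjusted p up to 0.0713), and with no filter on low genes, a replicate block, or without the 4 libraries highest in urothelial markers (up to 0.0756).

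Cited2, a CBP/p300-binding coregulator, fell with both agents, by 0.78 with PTH and by 0.65 with YKL-05-099 (adjusted p = 0.000265 and 0.00269). All 8 PTH and 7 of 8 YKL-05-099 libraries were below the lowest vehicle library. Pdk4, the kinase that restrains pyruvate dehydrogenase, fell by 0.53 with PTH and by 0.64 with YKL-05-099 (adjusted p = 0.0377 and 0.0131), the PTH call being lost without vehicle replicate 1, 3 or 7 or PTH replicate 2, 3, 4, 5 or 8 (adjusted p up to 0.0855) and under 5 of 10 other settings (up to 0.181). Sesn1, a stress-induced inhibitor of mTOR signalling, fell by 0.63 with PTH (adjusted p = 6.06e-05) and had a log2 fold change of -0.01 with YKL-05-099 (adjusted p = 0.967), and the difference of YKL-05-099 from PTH was 0.62 (adjusted p = 0.000219). Txnip, an inhibitor of thioredoxin and glucose uptake, fell by 0.60 with PTH (adjusted p = 0.000553). Its log2 fold change was -0.24 with YKL-05-099 (adjusted p = 0.138) and 0.36 between YKL-05-099 and PTH (adjusted p = 0.0603). Klf15, a regulator of amino acid metabolism, rose by 0.47 with YKL-05-099 (adjusted p = 0.0214), a call lost without the 4 libraries highest in urothelial markers (adjusted p = 0.0515) and at its threshold without vehicle replicate 7 (0.05). Its log2 fold change was 0.05 with PTH (adjusted p = 0.868) and 0.42 between YKL-05-099 and PTH (adjusted p = 0.0718). Cpt1a and Ccng2 rose by 0.25 and 0.21 with PTH. Fbxo32, Gadd45a, Bnip3 and Cdkn1b fell with PTH, with log2 fold changes of -0.47, -0.34, -0.25 and -0.21 (adjusted p = 0.00869, 0.0182, 0.00878 and 0.00847). These genes were outside the naming rule and are named after their values were seen. Their calls were not followed over the alternative settings.

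Upstream of Igf1, 2 of 6 genes of the growth hormone axis rose and 0 fell with each agent, also at an unadjusted p below 0.05. Over all genes tested, 6% were higher and 11.1% lower with PTH, and 6.26% and 11.5% with YKL-05-099. The 2 genes that rose were feedback inhibitors induced by STAT5. Cish had 15.33, 22.31 and 48.81 FPKM with PTH, 13.56, 20.19 and 31.36 FPKM with YKL-05-099, and 2.97, 8.79 and 12.34 FPKM with vehicle. All 16 libraries of the agents lay above the highest vehicle library. Cish rose by 1.65 with PTH (adjusted p = 1.85e-05) and by 1.41 with YKL-05-099 (adjusted p = 0.000319). Socs2, a suppressor of growth hormone receptor signalling, had 15.08, 25.65 and 34.72 FPKM with PTH, 12.63, 17.12 and 33.13 FPKM with YKL-05-099, and 4.65, 11.76 and 16.84 FPKM with vehicle. It rose by 1.12 with PTH (adjusted p = 0.000714) and by 0.70 with YKL-05-099 (adjusted p = 0.0277), the YKL-05-099 call being lost with a replicate block or without the 4 libraries highest in urothelial markers (adjusted p up to 0.0533), and without vehicle replicate 2 or 7 or YKL-05-099 replicate 4 (adjusted p up to 0.0641). Igf1 itself, as given above, did not pass the test.

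Among 11 tested proteases of IGF binding proteins and their inhibitors, 2 rose and 0 fell with each agent, and at an unadjusted p below 0.05 in limma 1 fell with PTH and 0 with YKL-05-099. For comparison, 6% of all genes tested were higher and 11.1% lower with PTH, and 6.26% and 11.5% with YKL-05-099. Adamts1, a metalloprotease, had 21.77, 23.74 and 38.07 FPKM with PTH, 9.99, 14.06 and 16.78 FPKM with YKL-05-099, and 6.24, 7.49 and 8.27 FPKM with vehicle. The 3 groups did not overlap. It rose by 1.79 with PTH (95% interval 1.55 to 2.02, adjusted p = 2.36e-11) and by 0.87 with YKL-05-099 (0.64 to 1.10, adjusted p = 2.15e-05), and the difference between YKL-05-099 and PTH was -0.92 (adjusted p = 1.19e-05). Stc1, a stanniocalcin of the family that inhibits PAPP-A, rose by 1.06 with PTH (adjusted p = 0.000783) and by 0.74 with YKL-05-099 (adjusted p = 0.0147), with 7 of 8 libraries of each agent above the highest vehicle library.

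**Figure D4:**
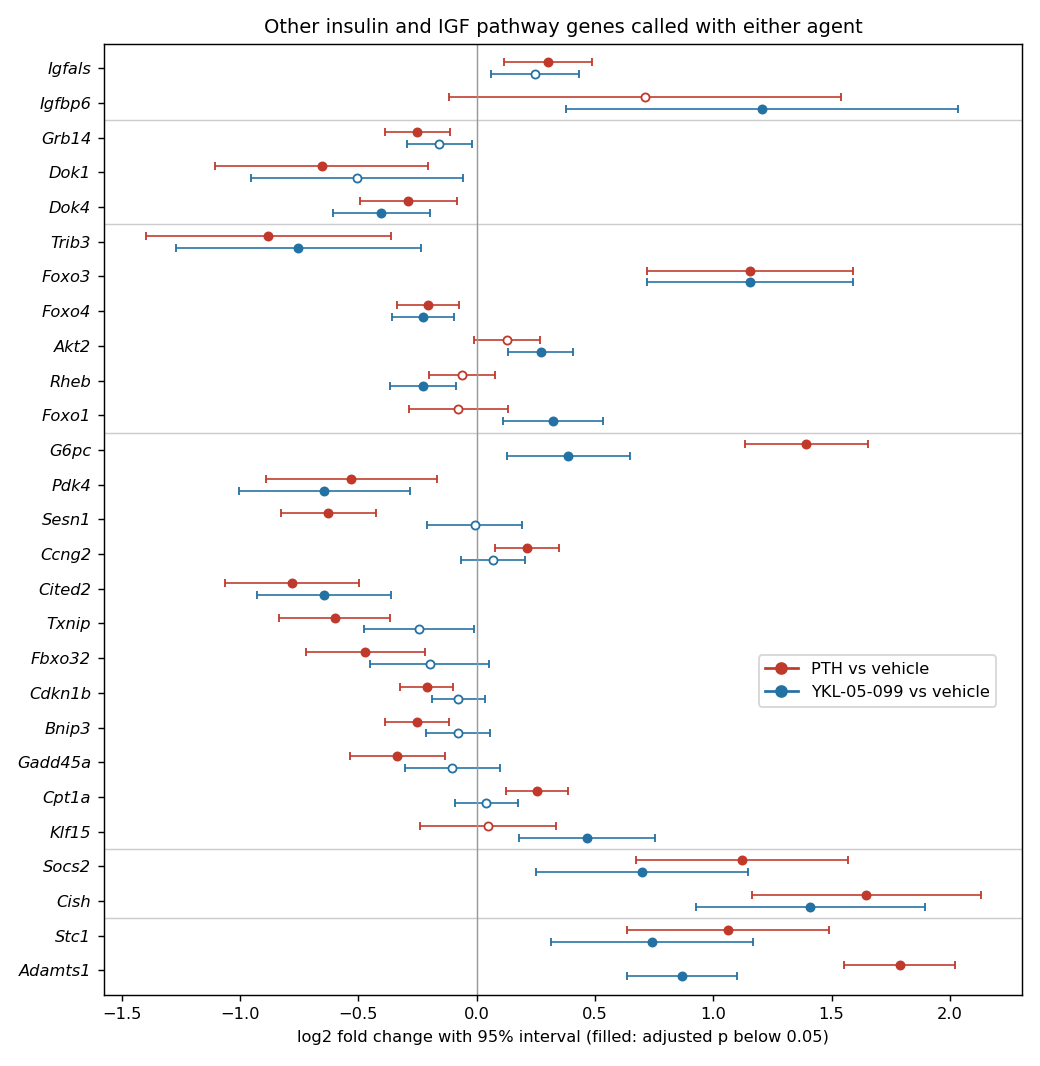
Log2 fold change with its 95% interval for PTH (upper point of each gene) and YKL-05-099 (lower point) against the same vehicle libraries, for every gene of the 6 other pathway lists that passed the test with either agent. Filled points have an adjusted p below 0.05, and grey lines separate the lists: other ligands, receptors and binding proteins, adaptors, PI3K to FOXO signalling, FOXO-activated genes, growth hormone axis, and proteases with their inhibitors.

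Of 7 other ligands, receptors, substrates and binding proteins tested, 1 rose and 0 fell with each agent (at an unadjusted p below 0.05, 0 fell as well). Across all genes tested, 6% were higher and 11.1% lower with PTH, and 6.26% and 11.5% with YKL-05-099. Igfals, the acid-labile subunit that joins IGFs and IGFBP3 in blood, rose by 0.30 with PTH (adjusted p = 0.0226), with 8.3, 9.58 and 12.14 FPKM against 5.89, 8.23 and 9.17 FPKM with vehicle, and the call was lost without vehicle replicate 7 (adjusted p = 0.053). Its log2 fold change was 0.25 with YKL-05-099 (adjusted p = 0.0574) and -0.05 between YKL-05-099 and PTH (adjusted p = 0.829). Igfbp6, which prefers IGF2, had a log2 fold change of 1.21 with YKL-05-099 (adjusted p = 0.0386), but its level was 0.38 to 1.23 FPKM with YKL-05-099 and 0 to 1.08 FPKM with vehicle, and the call was lost without vehicle replicate 2, 3, 4 or 6 or YKL-05-099 replicate 1, 4, 5, 6 or 7 (adjusted p up to 0.0831), and with a pseudocount of 0.01 or in a fit over 2 groups (up to 0.056). Over the settings other than leaving out 1 library, its log2 fold change with YKL-05-099 was 0.38 to 2.07. With PTH it was 0.71 (adjusted p = 0.245). Igfbp2 had 0.76 to 14.86 FPKM with PTH, 0.11 to 12.39 FPKM with YKL-05-099 and 1.35 to 15.76 FPKM with vehicle, a spread that left its log2 fold change with YKL-05-099, -1.53 (-3.14 to 0.07, adjusted p = 0.179), undecided. Irs3 was at or below 1.9 FPKM and Irs4 at or below 0.02 FPKM in every library. The Irs3 medians of 0.405 FPKM with PTH, 0.335 FPKM with YKL-05-099 and 0.68 FPKM with vehicle lay below those of Irs1 and Irs2. Its highest library was above the lowest vehicle library for Irs2 (1.57 FPKM).

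Of 13 adaptors and negative regulators at the receptors, 0 rose and 3 fell with PTH, and 0 rose and 1 fell with YKL-05-099 (at an unadjusted p below 0.05, 0 rose and 3 fell with each). Beside them, 6% of all genes tested were higher and 11.1% lower with PTH, and 6.26% and 11.5% with YKL-05-099. Grb14, an adaptor that inhibits the insulin receptor, fell by 0.25 with PTH (adjusted p = 0.0105), with 14.94, 18.87 and 20.27 FPKM against 18.07, 21.85 and 24.83 FPKM with vehicle. Its log2 fold change was -0.16 with YKL-05-099 (adjusted p = 0.101) and 0.09 between YKL-05-099 and PTH (adjusted p = 0.483). Dok4, a docking protein related to the IRS family, fell by 0.40 with YKL-05-099 (adjusted p = 0.00703) and by 0.29 with PTH (adjusted p = 0.0449), the PTH call being lost without vehicle replicate 2 to 8, PTH replicate 5 to 8 or YKL-05-099 replicate 3, 7 or 8 (adjusted p up to 0.103) and under 6 of 10 other settings (up to 0.0766). Dok1 fell by 0.66 with PTH (adjusted p = 0.0388) and lost its call without vehicle replicate 2, 4, 6, 7 or 8 or PTH replicate 6, 7 or 8 (adjusted p up to 0.0934), and under median-ratio or quantile scaling or with no filter on low genes (up to 0.0572). Its log2 fold change was -0.51 with YKL-05-099 (adjusted p = 0.108) and 0.15 between YKL-05-099 and PTH (adjusted p = 0.789).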

How the data were processed

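RNA was extracted from whole kidneys and sequenced on the BGISEQ500 platform. For the 24 libraries, the authors deposited FPKM (fragments scaled to transcript length and to each library's mapped total) to 2 decimals. FPKM values are relative to each library's total, so abundant genes that change shift the rest. STAR 2.7.2b, RSEM 1.3.0, DESeq2 and the builds mm10 and GRCm38 appear in the submitters' processing notes. Neither the annotation release nor the strandedness of counting is given in the sources used. A further value column, equal to PTH replicate 3 in every entry, was not used (1 column).

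Values were analysed as log2(FPKM + 0.1) for the 13991 of 19426 genes whose mean was 0.5 FPKM or more, with limma 3.58.1 in R 4.3.3 (1 mean per group over all 3 groups, mean-variance trend), and p-values were adjusted by Benjamini-Hochberg over all genes tested. Depth was estimated from steps between low values, of which 79.8% to 87.7% lay within 0.2 of a whole number of fragments, too few to recover counts. Gene bounds and promoters were matched by symbol or identifier in RefSeq (GRCm38.p6), and overlapping genes in GENCODE.

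The 10 genes and all lists were chosen with earlier results of these data known. Named beside them were up to 4 genes of smallest adjusted p per list and agent, 3 genes of nearest pattern for each of the 10 called against vehicle, and Xist, Ddx3y and Uty. Alternatives were other pseudocounts, filters and scalings, library weights, a replicate block, fits over 2 groups, and fits without single libraries or the 4 highest in urothelial markers.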

Additional observations from a re-analysis of the deposited data

Results flagged for a closer look

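In 3 of 30 sets of 8 libraries (10 genes in 3 groups), the highest library stood far from the rest of its group by Dixon's criterion, which chance meets in about 1 of 20 sets. Igfbp1 was 30.03 FPKM in PTH replicate 6, where the next highest PTH library had 16.78 FPKM. Igfbp4 was 380.8 FPKM in PTH replicate 4, the next highest having 308.93 FPKM. Igfbp7 was 2014 FPKM in YKL-05-099 replicate 8, the next highest having 1837 FPKM. PTH replicate 6 also had the highest Irs2, at 19.75 FPKM, and PTH replicate 4 the highest summed level of leukocyte markers among all libraries, at 65.43 FPKM.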

How the results depend on the processing

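Over 34 alternatives, the 10 genes kept their direction wherever called and their side of the threshold in 1008 of 1020 values, the 12 exceptions being those given for Igfbp3, Igf1r and Igfbp4, and Irs2 stayed called with both agents throughout (log2 fold change 0.93 to 1.33 with PTH and 1.17 to 1.34 with YKL-05-099 without 1 library). Library weights gave 1347 genes higher and 2487 lower with YKL-05-099 than with vehicle, against 876 and 1605. A fit over 2 groups gave 231 higher and 288 lower with YKL-05-099 than with PTH, against 397 and 501, and 278 lower were left without the 4 libraries highest in urothelial markers, a fit with fewer samples. Without 1 library, the counts ranged from 711 to 954 higher and 1211 to 1870 lower with PTH, from 702 to 1054 and 1245 to 1874 with YKL-05-099, and from 289 to 513 and 340 to 689 between the agents. Replicate numbers did not pair the libraries (24 correlations of deviations between -0.2 and 0.2, with 1 over 0.1, and 1 of 24 libraries nearest to its own number). A replicate block gave 776 higher and 1427 lower genes with PTH, 791 and 1474 with YKL-05-099, and 331 and 429 between agents, and among the 10 genes changed only the Igfbp3 difference between agents. Median-ratio scaling gave 1097 higher and 1102 lower with PTH, and 1164 and 1151 with YKL-05-099. Quantile normalization gave 44.1% and 45.3% of calls higher. By the estimated depth, counting error on a median vehicle level was about 9.47% for Irs2 and 2.26% for Igfbp3, and covers counting only.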
